A study of Rattus norvegicus with 63 samples.

Results

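The members are 5 genes that encode GluN1 and GluN2 subunits of the NMDA receptor, a glutamate-gated ion channel. They were measured on arrays of 6 brain regions from rats with different daily access to cocaine. They are Grin1, Grin2a, Grin2b, Grin2c and Grin2d, whose Entrez gene identifiers are 24408, 24409, 24410, 24411 and 24412. They were chosen by symbol: a probe set is a member where the platform annotation gives it 1 gene symbol only and that symbol is among these 5. The rule took 5 of the 720 genes named on the array by probe sets with 1 symbol, and 11 of the 1263 probe sets that are not array controls: 4 of Grin1, 2 each of Grin2a, Grin2c and Grin2d, and 1 of Grin2b. No measured value entered the rule.

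NMDA receptors are assemblies of subunits. Those whose RNA is measured here are GluN1, encoded by Grin1 and present in every NMDA receptor, and the GluN2 subunits, encoded by the 4 Grin2 genes. GluN1 binds the co-agonist glycine or D-serine and the GluN2 subunits bind glutamate; the GluN2 type sets channel block by magnesium, current decay and anchoring at the synapse. In adult rodent forebrain GluN2A and GluN2B are the prevalent types, GluN2C is best known from cerebellar granule cells and some glia and interneurons, and GluN2D from diencephalon, midbrain and interneurons. These receptors in the nucleus accumbens, ventral tegmental area and prefrontal cortex are widely studied for synaptic change after cocaine.

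The study gave rats intravenous cocaine self-administration at 0.25 mg per injection for 0 h a day (no access, cocaine-naive rats), 1 h a day (short access) or 6 h a day (long access), with 8 rats per access group per the design text. RNA of nucleus accumbens (NAc), amygdala (AMY), lateral hypothalamus (LH), septum (SEP), ventral tegmental area (VTA) and medial prefrontal cortex (mPFC) was hybridised to Affymetrix rat neurobiology arrays. Each access group has 4 arrays in NAc, AMY and LH and 3 arrays in SEP, VTA and mPFC, 63 arrays in all. The sources used here do not say how many rats an array stands for, so p-values measure the spread between arrays, which may be technical in part. Strain, sex, age and the time since the last session are likewise not given in the sources used here. All 3 groups come from dissected tissue, in which fewer cells of a type and less RNA per cell cannot be told apart.

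Levels are given as log2 of the array signal after each array was rescaled to a common mean of 500, with signals below 32 set to 32, so that 5 is the lowest log2 level a probe set can have. A difference of 1 on this scale is a doubling. Errors of levels are SDs over arrays and errors of differences are standard errors from limma, whose p-values were adjusted by Benjamini-Hochberg over all probe sets tested; a difference was called where the adjusted p was under 0.05. Levels of different probe sets are not comparable with each other. Probe set names that end in a letter before the final "at" (s, g or r) mark designs that may also bind related transcripts; 6 of the 11 members are of this kind, so their signal may not be that of the named gene alone.

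Of 5 genes, 3 had an entry in the RefSeq promoter table (build GRCr8), which holds 250 bases before and 50 after a gene's start. Grin2a and Grin2b had no entry, so the choice of the 3 shown was not made from measured values. Their sequences around the start are given as a description, and no link to the levels below was tested. In the same build, the start used for Grin1 is the outermost start of the gene, while those used for Grin2c and Grin2d lie 926 and 2164 bases inside the gene from its outermost start, so those windows do not cover it. Capitals mark matches on either strand to GGGCGG (the GC box), GCGGGGGCG (an Egr-type motif, which can overlap a GC box), TATAAA or TGACGTCA (the cyclic AMP response element). The strand is minus for all 3, and the windows are chr3:28528705-28529004 for Grin1, chr10:101005089-101005388 for Grin2c and chr1:105481187-105481486 for Grin2d.
Grin1: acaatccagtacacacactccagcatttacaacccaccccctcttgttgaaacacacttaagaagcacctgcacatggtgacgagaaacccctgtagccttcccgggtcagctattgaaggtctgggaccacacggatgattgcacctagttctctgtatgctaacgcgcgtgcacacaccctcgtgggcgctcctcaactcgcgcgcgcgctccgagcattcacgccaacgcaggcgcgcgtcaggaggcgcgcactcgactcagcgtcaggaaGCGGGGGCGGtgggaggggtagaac
Grin2c: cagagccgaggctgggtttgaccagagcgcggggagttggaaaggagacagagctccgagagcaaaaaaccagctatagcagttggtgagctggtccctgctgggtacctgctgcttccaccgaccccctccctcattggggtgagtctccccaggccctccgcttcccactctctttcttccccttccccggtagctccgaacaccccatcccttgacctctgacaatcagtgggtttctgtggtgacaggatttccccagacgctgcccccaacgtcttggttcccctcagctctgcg
Grin2d: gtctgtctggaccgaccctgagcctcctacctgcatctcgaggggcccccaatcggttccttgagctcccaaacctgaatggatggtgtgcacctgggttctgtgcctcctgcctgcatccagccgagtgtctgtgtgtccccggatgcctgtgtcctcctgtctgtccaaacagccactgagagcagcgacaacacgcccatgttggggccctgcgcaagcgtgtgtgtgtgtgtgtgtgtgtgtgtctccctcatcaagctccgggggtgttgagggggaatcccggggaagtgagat
Only the Grin1 window held a match: an Egr-type motif at position 26 after the start, overlapped by a GC box at position 30. Of 33469 promoters of the same length, 33.1% held a GC box, 2.73% the Egr-type motif, 14.2% TATAAA and 1.83% TGACGTCA on either strand. The Grin1 window had 25 CpG dinucleotides against 11 in Grin2c and 11 in Grin2d, and a median of 7 over all promoters. G and C made up 59.7%, 60.3% and 60.7% of the 3 windows, against a median of 51.7%.

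The tissue labels were set beside marker genes listed for each region. The lists were chosen with earlier results of these data known, so this is not an independent check. All tested markers exceeded the average of the 5 remaining regions in NAc (6 of 6), AMY (4 of 4), LH (5 of 5), VTA (5 of 5) and mPFC (5 of 5), and 3 of 4 in SEP, where Sst was lower. Between 680 and 738 probe sets passed a mean signal of 100 within a region, and 858 passed it in at least 1 region. Some arrays stood apart and touch results below. In LH, the 4 no access arrays had a mean log2 level of the antisense control probes of 8.13 ± 0.21 (SD, n = 4), against 6.84 ± 0.17 with short and 6.75 ± 0.15 with long access, and of the spiked-in bacterial controls of 12.05 ± 0.14 against 11.61 ± 0.27 and 11.39 ± 0.12. Across the 858 probe sets, all 4 LH no access arrays correlated best with the VTA among the other 5 regional profiles, and all 8 LH short and long access arrays with SEP. In mPFC, array 3 of each access group had lower Grin1 signal than the others.

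**Figure D1:**
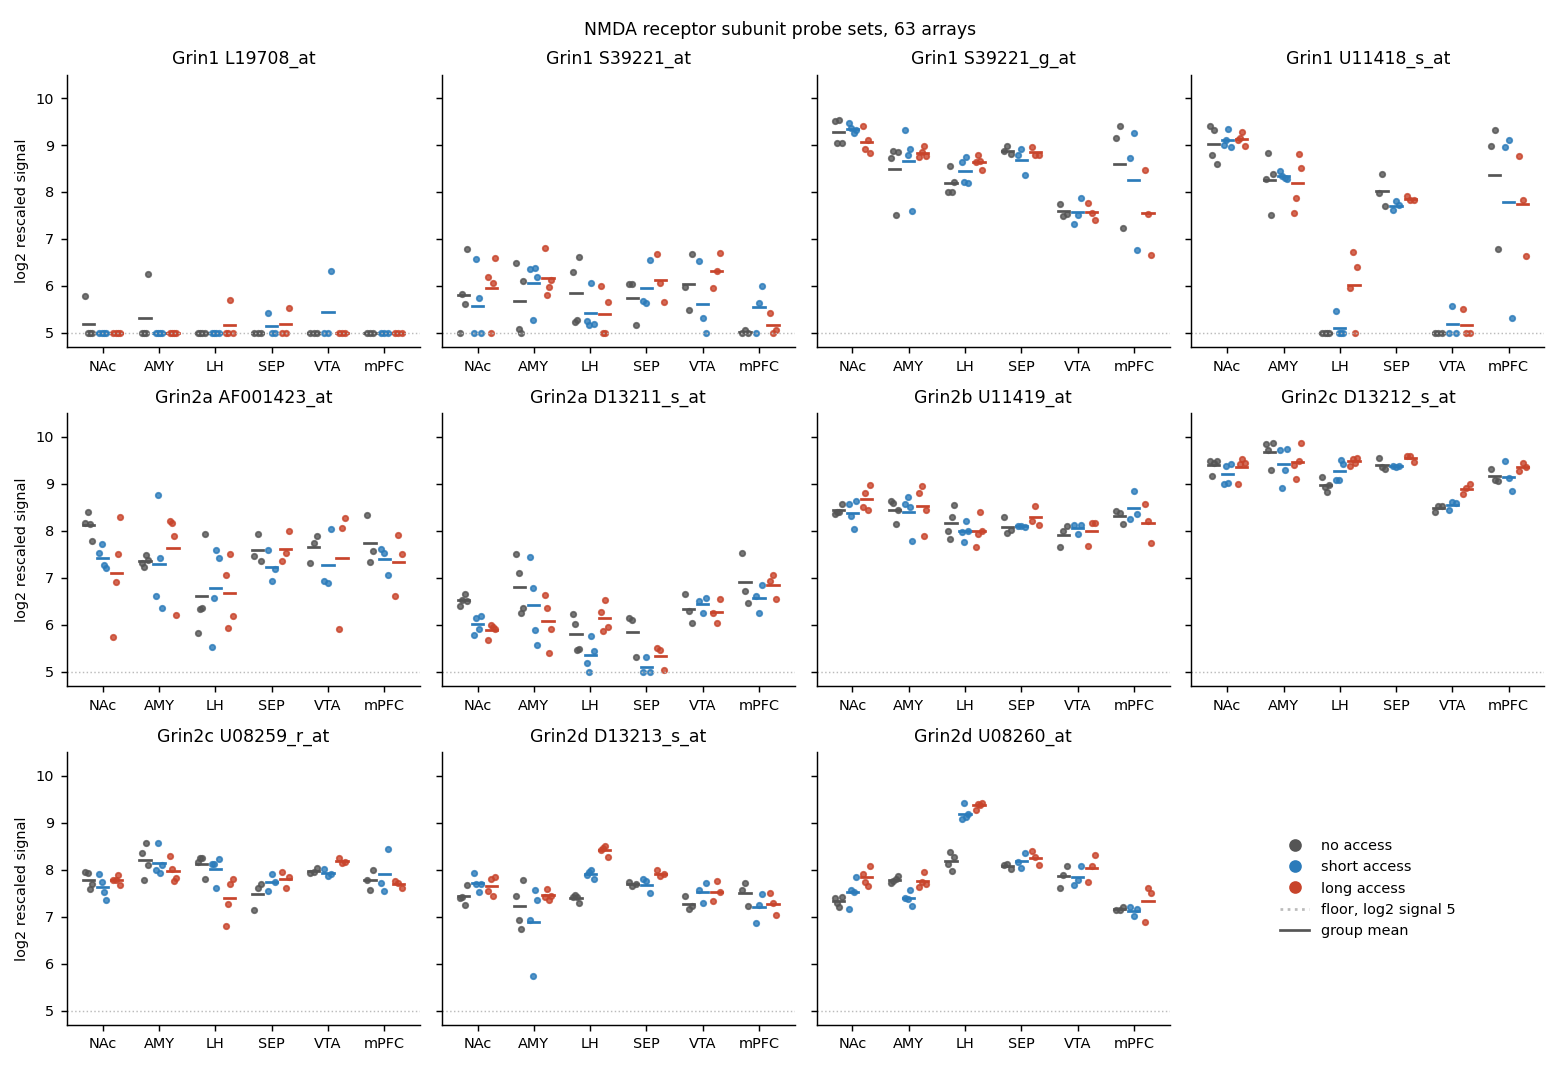
Log2 rescaled signal (vertical axis) of the 11 member probe sets on the 63 arrays, by region and access group; points are arrays, short lines are group means and the dotted line is the floor at 5. Grin1 U11418_s_at lies at or near the floor in LH and VTA and above 7 in NAc and AMY. In LH both Grin2d probe sets are higher with short and long access than with no access.

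Grin1, the subunit common to all NMDA receptors, was highest in NAc by both of its measurable probe sets; VTA was lowest by S39221_g_at, and VTA and LH were at or near the floor by U11418_s_at. With S39221_g_at the region means, each over its 3 access groups, ran from 9.23 in NAc through 8.81 in SEP, 8.66 in AMY, 8.42 in LH and 8.13 in mPFC to 7.58 in VTA. NAc exceeded VTA by 1.65 ± 0.22, a 3.14-fold difference (adjusted p = 3.38e-09). The 9 VTA arrays lay between 7.33 and 7.87 and the 12 NAc arrays between 8.84 and 9.53, without overlap. Of the neighbours in this order, only mPFC and VTA differed beyond their spread (0.55 ± 0.24, adjusted p = 0.0344); the other 4 steps did not pass, with adjusted p from 0.102 to 0.608. Against the mean of the other 5 regions the NAc level was higher by 0.91 ± 0.16 (adjusted p = 2.14e-06) and the VTA level lower, at -1.07 ± 0.18 (adjusted p = 8.48e-07). The SEP level, 0.40 ± 0.18 higher (adjusted p = 0.0601), passed without AMY short 1, SEP short 3, mPFC no 1, mPFC no 2, mPFC short 1, mPFC short 2 or mPFC long 1 (0.41 to 0.45, adjusted p from 0.0309 to 0.0492) and with array weights (0.00245).

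U11418_s_at gave a wider range for the same gene. It was 9.09 in NAc, 8.26 in AMY, 7.96 in mPFC and 7.86 in SEP, but 5.38 in LH and 5.12 in VTA. Every NAc array lay between 8.60 and 9.41. All 4 LH no access arrays and all 3 VTA no access arrays were at the floor, so that folds against them are bounds: among no access arrays the NAc mean was at least 16.3-fold, the mPFC mean at least 10.2-fold, the AMY mean at least 9.55-fold and the SEP mean at least 8.13-fold higher than in either. NAc exceeded AMY by 0.82 ± 0.26 (adjusted p = 0.00822), and SEP exceeded LH (adjusted p = 1.77e-10) by a size that the floor sets, since LH was at the floor on 8 of 12 arrays and VTA on 7 of 9; AMY against mPFC, mPFC against SEP and LH against VTA did not pass (adjusted p from 0.394 to 0.797). The fitted differences from the mean of the other regions were 2.17 in NAc, 1.18 in AMY, 0.82 in mPFC, 0.70 in SEP, -2.28 in LH and -2.59 in VTA, all called. The sizes of all 6 depend on the floor, because each average holds LH or VTA arrays at it. The SEP call was lost with the values as deposited (0.34 ± 0.20, adjusted p = 0.149) and among no access arrays alone (0.90 ± 0.34, adjusted p = 0.0518).

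The probe sets of Grin1 did not give the same picture in LH. There U11418_s_at was lower than elsewhere, while S39221_g_at was at -0.06 ± 0.16 (adjusted p = 0.774). In mPFC they took opposite signs, S39221_g_at at -0.41 ± 0.18 (adjusted p = 0.0436) and U11418_s_at at 0.82 ± 0.23 (adjusted p = 0.00175). The mPFC values turned on a few arrays. With no access, S39221_g_at read 9.15, 9.40 and 7.24 on arrays 1, 2 and 3, with short access 8.73, 9.25 and 6.77, and with long access 8.48, 7.53 and 6.67. U11418_s_at read 8.97, 9.31 and 6.78, then 8.95, 9.10 and 5.32, then 8.76, 7.83 and 6.63 on the same arrays. Array 3 was the lowest of its group for both probe sets in all 3 groups. Without the 3 arrays numbered 3, the difference of mPFC from the other regions was 0.22 ± 0.14 for S39221_g_at (adjusted p = 0.186) and 1.68 ± 0.15 for U11418_s_at (adjusted p = 1.51e-13). Leaving out single arrays (SEP short 2, VTA short 3, mPFC no 3, mPFC short 3, mPFC long 2 or mPFC long 3) also ended the S39221_g_at call, at -0.40 to -0.16 with adjusted p from 0.0504 to 0.416, as did the values as deposited (adjusted p = 0.0529), quantile normalization (0.0801) and no filter (0.0630). The mPFC marker genes averaged 10.47, 10.54 and 10.44 on the 3 arrays numbered 3, against 10.63 to 10.93 on the other 6; the part of tissue sampling in the Grin1 values was not tested.

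**Figure D2:**
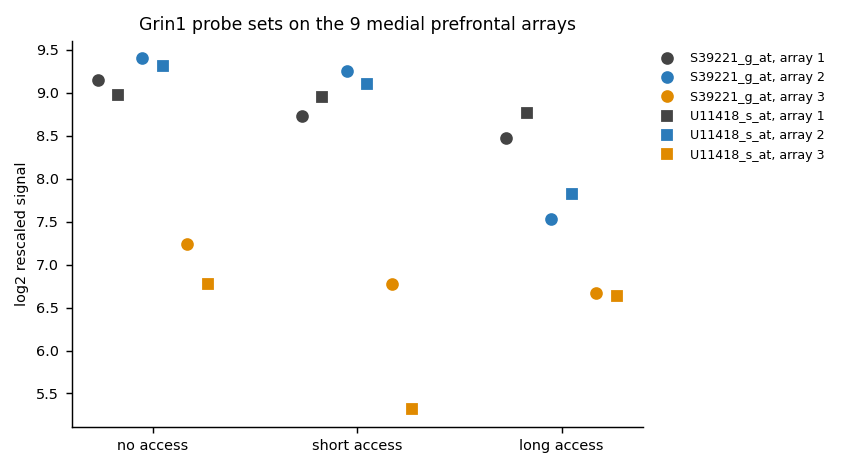
Log2 rescaled signal (vertical axis) of the Grin1 probe sets S39221_g_at (circles) and U11418_s_at (squares) on the 9 mPFC arrays by access group, coloured by array number. Array 3 lies lowest in each group for both probe sets, between 5.32 and 7.24.

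The other 2 Grin1 probe sets carried little signal and were not tested. L19708_at was at the floor on 57 of 63 arrays, and S39221_at, named for the same source sequence as S39221_g_at, was under a signal of 100 on 58 of 63 and had region means between 5.24 in mPFC and 6.00 in VTA. For neither can a level be set beside the bright probe sets.

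Grin2a encodes GluN2A, the GluN2 type that predominates at mature forebrain synapses, and was lowest in LH by AF001423_at. The LH mean was 6.69, against 7.43 to 7.56 in the other 5 regions, a difference of -0.80 ± 0.22 from their mean (adjusted p = 0.00200). The 12 LH arrays ranged from 5.53 to 7.92 around their lower mean and overlapped with every other region. The 4 steps between the other 5 regions were at most 0.06 and none passed (adjusted p from 0.893 to 0.963), while AMY exceeded LH by 0.74 ± 0.28 (adjusted p = 0.0225).

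The second Grin2a probe set, D13211_s_at, was dim: 52 of 63 arrays were under a signal of 100, and it entered the fit of all arrays through its mPFC mean alone. Its region differences are therefore given as a description, with no test. The means were 6.78 in mPFC, 6.43 in AMY, 6.35 in VTA, 6.14 in NAc, 5.77 in LH and 5.43 in SEP, where 2 of 9 arrays were at the floor. AF001423_at was at 0.18 ± 0.25 in mPFC and 0.16 ± 0.25 in SEP against the other regions, neither called. In NAc, where it was too dim for the access tests, D13211_s_at read 6.40, 6.53, 6.65 and 6.51 with no access, 5.79, 6.14, 5.91 and 6.20 with short access and 5.67, 5.99, 5.95 and 5.90 with long access, the no access arrays above all others.

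Grin2b, encoding GluN2B, the GluN2 type that prevails early in development and binds CaMKII, varied little between regions. Its only probe set, U11419_at, averaged 8.50 in NAc, 8.45 in AMY, 8.33 in mPFC, 8.16 in SEP, 8.05 in LH and 7.99 in VTA, and no step between neighbours passed (adjusted p from 0.266 to 0.769). Over the whole order NAc exceeded VTA by 0.51 ± 0.12, a 1.42-fold difference (adjusted p = 3.00e-04). The 9 VTA arrays spanned 7.65 to 8.18 and the 12 NAc arrays 8.04 to 8.97, with overlap. Against the other regions, NAc was higher (0.31 ± 0.09, adjusted p = 0.00279) and VTA lower (-0.30 ± 0.10, adjusted p = 0.00729). AMY was higher by 0.25 ± 0.09 (adjusted p = 0.0185) and LH lower at -0.24 ± 0.09 (adjusted p = 0.0224); the AMY call was lost without AMY short 2 or AMY long 2 (adjusted p 0.0545 and 0.0675) and with array weights (0.0564), and the LH call without LH no 2, LH short 2 or LH long 1 (adjusted p from 0.0528 to 0.0666) and with quantile normalization.

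Grin2c encodes GluN2C, and its brighter probe set D13212_s_at set VTA apart from the other regions. The region means were 9.52 in AMY, 9.44 in SEP, 9.32 in NAc, 9.24 in LH, 9.22 in mPFC and 8.65 in VTA. The step from mPFC to VTA was 0.57 ± 0.10 (adjusted p = 1.69e-06), and the 4 steps above it did not pass (adjusted p from 0.261 to 0.873). In VTA the arrays read 8.39, 8.54 and 8.54 with no access, 8.44, 8.62 and 8.60 with short access and 8.78, 8.91 and 8.99 with long access. The VTA level lay below the average elsewhere (-0.70 ± 0.08, adjusted p = 1.54e-11), and AMY (0.35 ± 0.07, adjusted p = 2.46e-05) and SEP (0.26 ± 0.08, adjusted p = 0.00425) were higher.

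U08259_r_at, the other Grin2c probe set, shared only the AMY difference (0.29 ± 0.08, adjusted p = 0.00331). In VTA it was at 0.20 ± 0.09 (adjusted p = 0.0587), and in SEP it was lower (-0.23 ± 0.09, adjusted p = 0.0411) where D13212_s_at was higher. That SEP call was lost without SEP no 1, SEP short 1, SEP short 3, SEP long 2 or SEP long 3 (-0.24 to -0.17, adjusted p from 0.0527 to 0.157), without the LH no access arrays (0.0812), without the mPFC arrays numbered 3 (0.0512) and with the values as deposited (0.0501). The VTA difference passed with quantile normalization, with array weights, without the LH no access arrays, without the mPFC arrays numbered 3, and without AMY no 3, AMY short 2, AMY long 1, LH long 3, LH long 4 or mPFC short 3 (0.21 to 0.22, adjusted p from 0.0288 to 0.0492). The 2 probe sets of this gene had a correlation of -0.27 over the 63 arrays, given as a description, so the values of Grin2c are those of each probe set and not of the gene.

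Grin2d, encoding GluN2D, the type with the slowest channel closing, was highest in LH and lowest in mPFC by U08260_at, a probe set without a suffix. The means fell from 8.92 in LH to 8.17 in SEP, 7.92 in VTA, 7.65 in AMY, 7.56 in NAc and 7.21 in mPFC. LH exceeded mPFC by 1.71 ± 0.09, a 3.27-fold difference (adjusted p = 8.26e-24). Every step passed except that from AMY to NAc (0.08 ± 0.08, adjusted p = 0.433), the first step of 0.74 ± 0.09 being the widest (adjusted p = 3.97e-10). The mPFC arrays lay between 6.89 and 7.60 and the LH arrays between 7.97 and 9.42. LH stood 1.21 ± 0.06 above the mean of the other regions (adjusted p = 5.14e-23), SEP 0.32 ± 0.07 above (adjusted p = 1.50e-04), and AMY (-0.31), NAc (-0.41) and mPFC (-0.84) below, all called.

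Part of the LH height of Grin2d lay in the short and long access arrays. Among no access arrays alone, LH stood 0.54 ± 0.11 above the other regions by U08260_at (adjusted p = 3.85e-04), and without the LH no access arrays 1.58 ± 0.08 above. D13213_s_at was 0.44 ± 0.10 above in LH over all arrays (adjusted p = 8.55e-05), 0.69 ± 0.12 without the LH no access arrays, and -0.03 ± 0.15 among no access arrays alone (adjusted p = 0.896). The AMY difference of U08260_at was likewise 0.07 ± 0.11 among no access arrays alone (adjusted p = 0.683). For D13213_s_at no step between neighbours passed (adjusted p from 0.282 to 0.390 for 4 of 5 and 0.456 for VTA and mPFC), but LH exceeded AMY, the lowest region, by 0.72 ± 0.12 (adjusted p = 1.12e-06). The AMY arrays reached from 5.73 to 7.77, the widest span of this probe set in any region. Its lower level in mPFC (-0.25 ± 0.11, adjusted p = 0.0332) was lost without mPFC no 3, mPFC short 1 or mPFC long 3 (-0.21 to -0.20, adjusted p from 0.0958 to 0.122), without all 3 arrays numbered 3 (-0.21 ± 0.13, adjusted p = 0.129), with the replicate block (-0.23 ± 0.11, adjusted p = 0.0571) and with quantile normalization (-0.12, adjusted p = 0.363). Its higher level in SEP (0.27 ± 0.11, adjusted p = 0.0305) was lost without SEP no 1, SEP short 1, SEP short 2 or SEP long 1 (0.25 to 0.26, adjusted p from 0.0536 to 0.0672), and with quantile normalization (0.109) or without the LH no access arrays (0.0962).

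**Figure D3:**
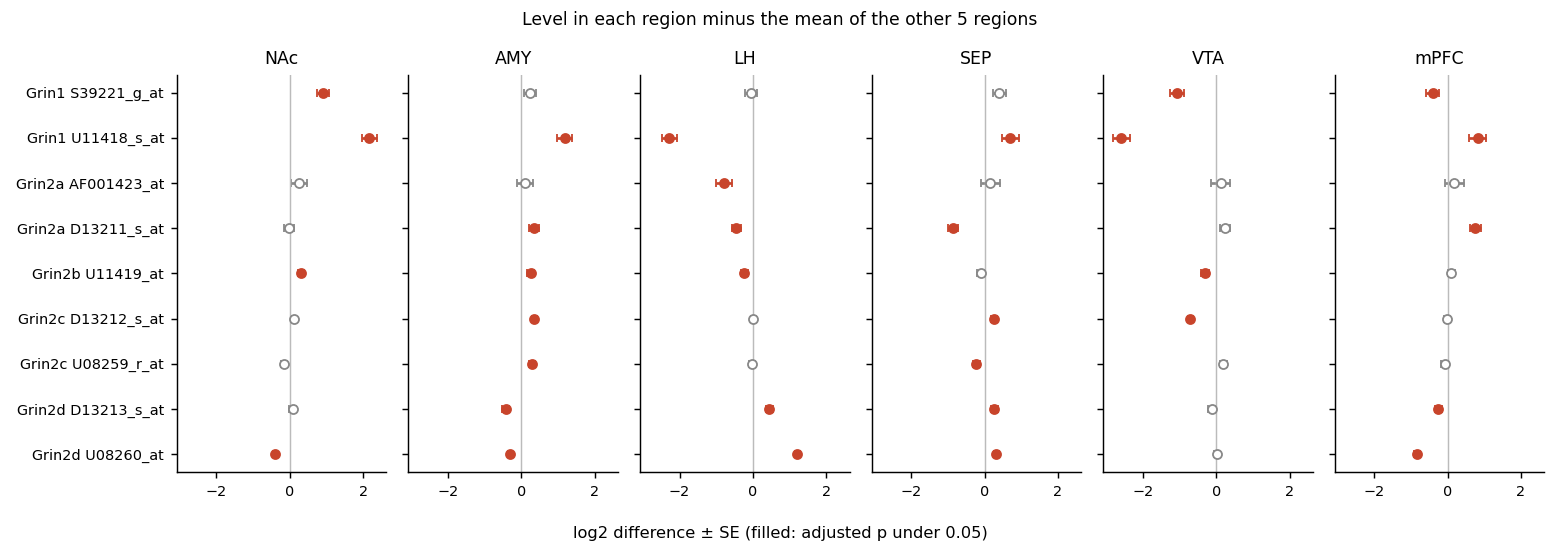
Log2 level of 9 tested member probe sets in each region minus the mean of the other 5 (horizontal axis, ± SE, from all 63 arrays); filled points passed an adjusted p of 0.05. Grin1 U11418_s_at runs from 2.17 in NAc to -2.59 in VTA, and Grin2d U08260_at is highest in LH at 1.21; Grin2a D13211_s_at is drawn with the rest although its mPFC level alone brought it into the fit.

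The counts were read against the whole table. Of the 9 tested members, 4 were called in NAc, where 65.9% of all tested probe sets were called, 7 in AMY (50.1%), 6 in LH (55.5%), 6 in SEP (50.9%), 4 in VTA (68.5%) and 5 in mPFC (67.2%). Over the 15 pairs of regions, 81 of 135 member differences were called, against 58.3% of all differences. Over the 6 regions 16 member differences were higher and 16 lower. Leaving out Grin2a D13211_s_at, which passed the filter through mPFC alone, 28 of 48 were called, 14 in each direction, and 71 of 120 over the pairs. Of the 8 members then left, 4 were called in NAc, 6 in AMY, 5 in LH, 5 in SEP, 4 in VTA and 4 in mPFC. Among no access arrays alone and with that probe set left out, called differences that did not pass were those of Grin2b in NAc, AMY and LH (adjusted p 0.131, 0.135 and 0.664), of Grin2c D13212_s_at in SEP (0.0837) and U08259_r_at in AMY (0.0519), of Grin2d D13213_s_at in AMY, SEP and mPFC (0.242, 0.162 and 0.670) and of Grin1 S39221_g_at in mPFC (0.802), beside the SEP, AMY and LH differences of Grin1 and Grin2d given above; Grin2a AF001423_at passed in NAc (0.74 ± 0.26, adjusted p = 0.0220).

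Genes that bind NMDA receptors or act next to them were described from a list of 42, of which 19 were on the array and 18 were tested across regions. In NAc 11 were higher and 4 lower (median difference 0.44, against -0.01 for all probe sets), and in mPFC 10 were higher and 3 lower (median 0.40 against -0.11). In LH 1 was higher and 13 lower (median -0.37 against 0.03), and in VTA 3 were higher and 10 lower (median -0.72 against 0.01). AMY had 8 higher and 1 lower (median 0.13 against 0.03) and SEP 4 higher and 6 lower (median -0.07 against 0.04). Of all tested probe sets, 65.9% were called in NAc, 67.2% in mPFC, 55.5% in LH, 68.5% in VTA, 50.1% in AMY and 50.9% in SEP. Camk2a, a kinase that binds GluN2B, was at 1.42 ± 0.14 in NAc, 1.18 ± 0.15 in mPFC, 0.81 ± 0.14 in AMY, -1.63 ± 0.14 in LH and -2.04 ± 0.15 in VTA, each called; a second probe set of it did not pass in AMY (0.14) or mPFC (0.47). Ptk2b, a calcium-activated tyrosine kinase of the receptor complex, ran from 1.73 ± 0.11 in AMY to -3.68 ± 0.13 in VTA, again called at both ends.

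Among the 8 tested AMPA, kainate and delta receptor genes, the other ionotropic glutamate receptors, 5 were higher and 1 lower in NAc (median 0.77), where 65.9% of all probe sets were called, and 2 were higher and 5 lower in VTA (median -0.71), where 68.5% were. AMY had 5 higher and 1 lower (50.1% of all probe sets called), LH 1 higher and 4 lower (55.5%), SEP 2 higher and 3 lower (50.9%) and mPFC 3 higher and 1 lower (67.2%). Gria1, an AMPA receptor subunit, was 0.88 ± 0.09 above the other regions in NAc and at -1.17 ± 0.10 in VTA, both called. Grik4, a kainate receptor subunit, was higher in VTA (1.04 ± 0.10) and LH (0.72 ± 0.09) and lower in AMY (-0.68 ± 0.09), all called.

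Access to cocaine was then compared within each region. Grin2d showed the largest called change of the members, in LH. U08260_at read 8.13, 8.37, 7.97 and 8.27 on the no access arrays, 9.07, 9.42, 9.11 and 9.18 with short access and 9.28, 9.41, 9.37 and 9.42 with long access. Every short and long access array lay above every no access array, and short and long access overlapped. Long access exceeded no access by 1.18 ± 0.11, a 2.27-fold rise (adjusted p = 4.08e-06), and short access exceeded it by 1.01 ± 0.11 (adjusted p = 1.43e-05). Long and short access differed by 0.17 ± 0.11 (adjusted p = 0.374).

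D13213_s_at rose in 2 steps. It read 7.41, 7.47, 7.42 and 7.30 with no access, 7.88, 7.95, 7.99 and 7.80 with short access and 8.42, 8.46, 8.50 and 8.28 with long access, and the 3 groups did not overlap. The differences were 1.01 ± 0.11 for long against no access (adjusted p = 1.06e-05), 0.51 ± 0.11 for short against no access (adjusted p = 0.00475) and 0.51 ± 0.11 for long against short access (adjusted p = 0.0111). With the spread estimated from all 63 arrays, the short against no access difference did not pass (adjusted p = 0.122), nor did long against short access.

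Both Grin2c probe sets moved in LH, in opposite directions. D13212_s_at read 9.14, 8.93, 8.82 and 8.98 with no access, 9.08, 9.08, 9.51 and 9.42 with short access and 9.38, 9.53, 9.44 and 9.55 with long access; the long access arrays lay above all no access arrays. It was higher with long than with no access by 0.51 ± 0.12 (adjusted p = 0.00455) and by 0.30 ± 0.12 with short access, which did not pass (adjusted p = 0.0768). U08259_r_at read 8.17, 8.25, 8.25 and 7.80 with no access, 8.12, 8.13, 7.60 and 8.22 with short access and 6.81, 7.27, 7.70 and 7.80 with long access. The highest long access value equalled the lowest no access value to 2 decimals. It fell with long against no access, at -0.72 ± 0.21 (adjusted p = 0.0194). This call was lost without LH no 3, LH long 1 or LH long 2 (-0.68 to -0.53, adjusted p from 0.0502 to 0.0563), with no filter (0.0595) and when adjusted over 18 contrasts (0.101).

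The Grin1 difference in LH was close to the threshold. S39221_g_at read 7.99, 8.56, 8.00 and 8.21 with no access, 8.63, 8.21, 8.74 and 8.19 with short access and 8.63, 8.79, 8.67 and 8.46 with long access. Long access exceeded no access by 0.45 ± 0.16 (adjusted p = 0.0479), with overlap between the groups, and the call was lost without LH no 1, LH no 3, LH no 4, LH short 1, LH long 1, LH long 2 or LH long 3 (0.38 to 0.45, adjusted p from 0.0515 to 0.127), with the replicate block (0.0574), quantile normalization (0.0559), no filter (0.0985), no trend (0.0523), adjustment over 18 contrasts (0.194) and the spread estimated from all 63 arrays (0.469). U11418_s_at was at the floor on all 4 no access arrays and read 5.46, 5.00, 5.00 and 5.00 with short access and 5.95, 6.72, 5.00 and 6.41 with long access. Its mean signal in LH was under 100, and it was not tested there.

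Grin2a and Grin2b gave no call in LH. AF001423_at averaged 6.61 ± 0.91 with no access, 6.78 ± 0.95 with short and 6.67 ± 0.74 with long access, and the long against no access difference of 0.06 ± 0.51 had a 95% interval from -1.04 to 1.16. U11419_at averaged 8.17 ± 0.32, 7.99 ± 0.18 and 7.99 ± 0.31, with a difference of -0.17 ± 0.18 and an interval from -0.56 to 0.22.

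**Figure D4:**
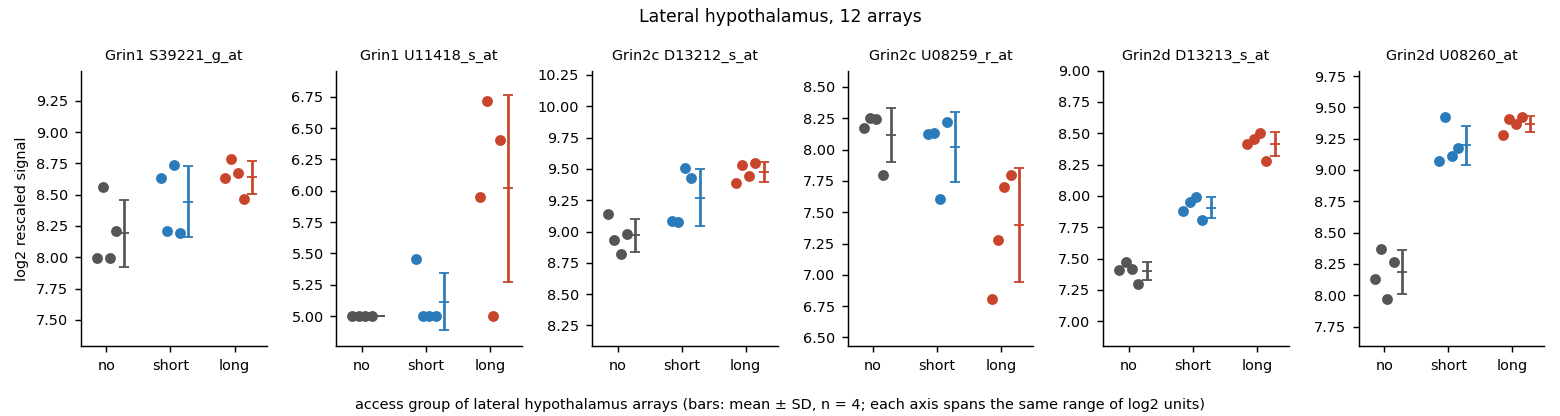
Log2 rescaled signal (vertical axis) of Grin1, Grin2c and Grin2d probe sets on the 12 LH arrays by access group, with mean ± SD (n = 4). Grin2d D13213_s_at shows 3 separate groups, and the Grin2c probe sets D13212_s_at and U08259_r_at go in opposite directions.

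In LH, 5 of 7 tested members were called for long against no access, 4 higher and 1 lower, where 29.7% of all tested probe sets were called. For short against no access it was 2 of 7, both Grin2d, against 22.4%, and for long against short access 1 of 7, against 8.91%. The median member difference for long against no access was 0.45, against -0.03 for all tested probe sets. The calls against no access share the same 4 control arrays, which are those whose antisense and spiked-in controls stood apart. The antisense controls were lower with long than with no access by 1.38 and with short access by 1.29, and the spiked-in controls by 0.66 and 0.44; each had a two-sided exact permutation p of 0.0286, the smallest that 4 against 4 arrays allow. For the 4 probe sets called higher, the LH no access mean lay between the VTA no access mean and the LH long access mean: in this order, VTA first, the values were 7.86, 8.18 and 9.37 for U08260_at, 7.28, 7.40 and 8.41 for D13213_s_at, 8.49, 8.97 and 9.48 for D13212_s_at and 7.59, 8.19 and 8.64 for S39221_g_at. The other members tested in LH did not have this order. U08259_r_at, called lower, was at 7.97, 8.12 and 7.40. The members without a call were at 7.65, 6.61 and 6.67 (AF001423_at) and at 7.92, 8.17 and 7.99 (U11419_at). The part of tissue or of RNA handling in the LH access differences was not tested.

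The spiked-in control level of each LH array was also used as a covariate. It ran from 11.94 to 12.18 with no access, 11.35 to 11.85 with short and 11.23 to 11.50 with long access. No access did not overlap the other groups, so this fit cannot separate the control level from access. The antisense level was not used as a covariate. In this fit the Grin2d differences for long against no access were 1.21 ± 0.22 (U08260_at, adjusted p = 0.00586) and 1.01 ± 0.22 (D13213_s_at, adjusted p = 0.0116). Those of D13212_s_at (0.42 ± 0.23, adjusted p = 0.317), U08259_r_at (-0.60 ± 0.43, adjusted p = 0.469) and S39221_g_at (-0.15 ± 0.26, adjusted p = 0.812) did not pass. For short against no access U08260_at was at 1.03 ± 0.17 (adjusted p = 0.00162), and D13213_s_at lost its call at 0.50 ± 0.17 (adjusted p = 0.0862). The long against short access difference of D13213_s_at was 0.50 ± 0.13 (adjusted p = 0.0394); the covariate was fitted on all 12 LH arrays, those without access included.

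Markers of the cells in LH were set beside these values. Neuron markers, 8 genes on the array, averaged 11.50 ± 0.05 with no access, 11.51 ± 0.07 with short and 11.55 ± 0.02 with long access. For long against no access 2 of 8 were higher and 2 lower, where 29.7% of all probe sets were called. Of 6 oligodendrocyte markers 2 were higher and 3 lower, and of 6 astrocyte markers 1 was higher and 2 lower; the 1 tested microglia marker and the 1 tested vessel marker were lower, at -0.67 ± 0.10 and -0.71 ± 0.12, and the 3 choroid plexus markers gave no call. The mean level of the oligodendrocyte list ran from 11.95 to 12.02 on the no access, 12.22 to 12.35 on the short and 12.07 to 12.20 on the long access arrays, and that of the astrocyte list from 10.72 to 10.82, 10.35 to 10.74 and 10.64 to 10.77. The microglia list lay at 8.88 to 9.04, 8.43 to 8.70 and 8.44 to 8.77 and the vessel marker at 11.70 to 11.97, 11.13 to 11.53 and 10.98 to 11.44, with the no access arrays highest for both. Their part in the member differences was not tested. The VTA marker list of 5 genes averaged 7.36 ± 0.28 in LH with no access, 7.30 ± 0.17 with short and 7.47 ± 0.33 with long access, within its spread. Of its members, Th, the rate-limiting enzyme of dopamine synthesis, was higher in LH with long than with no access (0.52 ± 0.15, adjusted p = 0.0194), 1 of 2 Ddc probe sets was lower (-0.35 ± 0.12, adjusted p = 0.0450), and Slc6a3, the dopamine transporter, was at -0.88 ± 0.39 (adjusted p = 0.112).

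Outside LH no member was called in any access comparison. The counts were 0 of 8 for each of the 3 contrasts in NAc, where 0% of all probe sets were called for long against no, short against no and long against short access. In AMY they were 0 of 8, against 0.137%, 0% and 0%, in SEP 0 of 8, against 2.31%, 1.9% and 2.04%, in VTA 0 of 7, against 2.91%, 0.831% and 2.63%, and in mPFC 0 of 9, against 0%, 0% and 0%. Of these 120 limma tests, 6 had an unadjusted p under 0.05, about as many as that cut passes by chance in so many tests. The differences ranged from -1.02 to 0.51 in NAc, -0.39 to 0.56 in AMY, -0.35 to 0.39 in SEP, -0.36 to 0.41 in VTA and -1.04 to 0.28 in mPFC, with standard errors up to 0.38, 0.50, 0.24, 0.52 and 1.06, so that changes of the size seen for Grin2d in LH lay within the error for some members, above all Grin1 in mPFC.

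The 6 are given with their values, as a description. Grin2d U08260_at in NAc read 7.39, 7.28, 7.21 and 7.42 with no access and 7.91, 7.73, 7.64 and 8.07 with long access, without overlap, a difference of 0.51 ± 0.16 (adjusted p = 0.136). In AMY it was at -0.39 ± 0.15 for short against no access (adjusted p = 0.943) and 0.37 ± 0.15 for long against short access (adjusted p = 0.927). Grin2a AF001423_at in NAc read 8.16, 8.41, 8.15 and 7.79 with no access and 5.75, 6.90, 7.51 and 8.29 with long access, with overlap, a difference of -1.02 ± 0.38 (adjusted p = 0.210). Grin2c D13212_s_at in VTA was at 0.41 ± 0.12 for long against no access (adjusted p = 0.0940), the 3 long access arrays lying above the other 6, and at 0.34 ± 0.12 for long against short access (adjusted p = 0.216). The long against no access difference passed with array weights. In VTA the antisense controls averaged 7.10 ± 0.03 with no and 8.04 ± 0.19 with long access; their part in the Grin2c values was not tested.

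**Figure D5:**
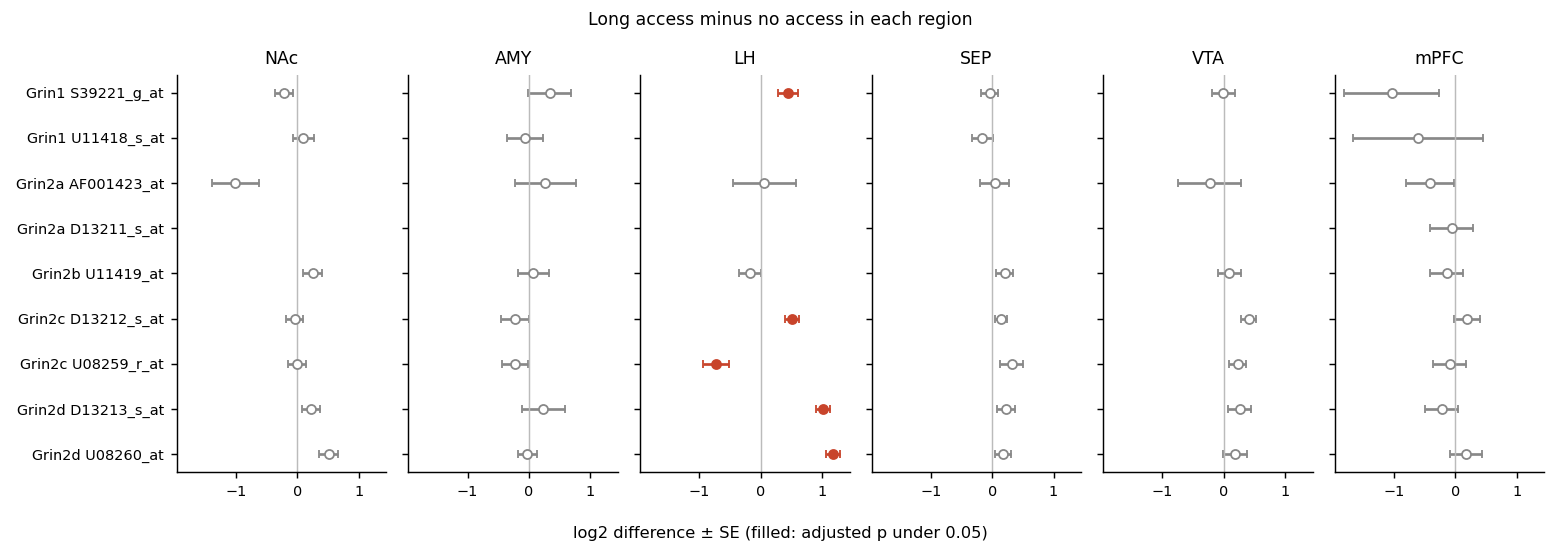
Log2 difference of long minus no access (horizontal axis, ± SE) for tested member probe sets in each region, fitted on that region's arrays; filled points passed an adjusted p of 0.05. All 5 filled points lie in LH, with Grin2d at 1.18 and 1.01 and Grin2c U08259_r_at at -0.72.

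Whether LH differed from the other regions was tested directly, as the access difference of a region minus the mean of that difference in the other 5. For long against no access 3 of 54 member tests were called, all in LH, against 2.14% of all tests: U08260_at at 0.98 ± 0.16 (adjusted p = 1.83e-05), D13213_s_at at 0.87 ± 0.23 (adjusted p = 0.0105) and U08259_r_at at -0.77 ± 0.21 (adjusted p = 0.0117). The last was lost without LH long 1 (-0.57, adjusted p = 0.0682). D13212_s_at (0.41 ± 0.17, adjusted p = 0.0977) and S39221_g_at (0.64 ± 0.39, adjusted p = 0.324) did not pass, so their rise was not shown to differ between LH and the other regions. For short against no access 1 of 54 was called, U08260_at at 1.04 ± 0.16 (adjusted p = 6.13e-06), against 1.18%, and for long against short access 0 of 54 against 0.0389%. Grin1 U11418_s_at in LH for long against no access, at 1.13, is given as a description with no test. Its LH signal was under the filter and all 4 LH no access arrays were at the floor, so the floor sets the size. Over the alternatives the value ran from 0.39 to 2.48, and passes under some of them are included in the counts below. Some other differences that were not called passed under other settings. Grin1 S39221_g_at in mPFC for long against no access (-1.14 ± 0.44, adjusted p = 0.609) passed without mPFC no 3 (-1.82, adjusted p = 0.0237) and with array weights (-1.53, adjusted p = 0.00719). Grin2d U08260_at in AMY for short against no access, at -0.65 ± 0.16 (adjusted p = 0.0554), passed with the replicate block (adjusted p = 0.0359), with no filter (0.0251) or no trend (0.0285), and without NAc short 1, AMY no 1, AMY short 3, LH no 2, SEP short 2, VTA no 3, VTA short 1, VTA long 1, VTA long 3, mPFC no 1, mPFC long 1 or mPFC long 2 (-0.71 to -0.65, adjusted p from 0.0208 to 0.0477).

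Averaged over the 6 regions, 1 of 9 members was called for long against no access, Grin2d U08260_at at 0.37 ± 0.06 (adjusted p = 2.27e-04), where 1.17% of all probe sets were called; without LH in the mean none was. For short against no access 0 of 9 were called, against 0.816%, and for long against short access 0 of 9, against 0.233%. The mean difference of D13213_s_at for long against no access was 0.29 ± 0.09 (adjusted p = 0.133) and passed without AMY short 2 (adjusted p = 0.0309). Grin2d U08260_at, at 0.22 ± 0.06 for long against short access (adjusted p = 0.0985), passed without mPFC long 1 (0.26, adjusted p = 0.0140). Grin2a D13211_s_at, which entered the fit through mPFC alone, was at -0.39 for short against no access, given as a description with no test.

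The balance of Grin2a and Grin2b was followed as the difference of AF001423_at and U11419_at within an array, which shows changes only, since the probe sets differ. In NAc it averaged -0.31 ± 0.34 with no access, -0.96 ± 0.37 with short and -1.57 ± 0.95 with long access (SD, n = 4 each). The change with long access was -1.26, with a two-sided exact permutation p of 0.0571 where 0.0286 is the smallest possible. With 3 arrays a group, as in SEP, VTA and mPFC, the smallest exact p is 0.10, and after adjustment over the 18 contrasts no result of these exact tests could pass the threshold, whatever the values.

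Of the 15 partner genes tested in LH, 2 rose and 5 fell with long against no access (median -0.13, against -0.03 for all probe sets), where 29.7% of all probe sets were called. Grina, which encodes a membrane protein named for its link to glutamate receptors, rose by 0.87 ± 0.08 (adjusted p = 2.03e-06) and Prkcb, a protein kinase C, was at -0.52 ± 0.08 (adjusted p = 1.72e-04), while its 2 other probe sets did not pass. Fyn, a kinase that phosphorylates GluN2 subunits, was at -0.49 ± 0.12 (adjusted p = 0.00742). Camk2d was at -0.48 ± 0.08 (adjusted p = 6.47e-04) by its brightest probe set, with 2 others lower and 1 not passing. For short against no access 3 rose and 3 fell, among them Ptk2b (0.88 ± 0.24) and Dlgap4 (0.46 ± 0.15), where 22.4% of all probe sets were called. For long against short access 1 rose and 1 fell, Grina (0.35 ± 0.08) and Fyn (-0.48 ± 0.12), where 8.91% were called. Of the 8 other ionotropic receptor genes, Grik5, a kainate receptor subunit, rose with long against no access (0.46 ± 0.13, adjusted p = 0.0153) and Grik4 fell (-0.75 ± 0.12, adjusted p = 3.37e-04).

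The genes whose levels ran most like each member over the 63 arrays were found by Pearson correlation among 767 probe sets, for the brightest probe set of each member gene; the points share region, array and scaling, and the values are descriptions. The second value of each pair is the correlation after each region's mean was removed. For Grin1 S39221_g_at they were Ncs1, a neuronal calcium sensor (0.86, 0.79), Ncan, a proteoglycan of the perineuronal matrix (0.85, 0.74), and Grina (0.81, 0.71). For Grin2b they were Egr1, an activity-dependent transcription factor (0.69, 0.50), Cacna1a, a calcium channel (0.69, 0.56), and Synpo, a spine protein (0.68, 0.46). For Grin2c D13212_s_at they were Nrxn2 (0.76, 0.50), Grina (0.76, 0.58) and Grik5 (0.73, 0.48), and for Grin2d U08260_at Capns1, a calpain subunit (0.82, 0.37), Gnas (0.75, 0.37) and Sv2a, a synaptic vesicle protein (0.74, 0.15). No gene was close to Grin2a AF001423_at, the highest being Prkca, Gria3 and Kcnma1 at 0.43 each over the arrays and 0.34, 0.41 and 0.24 within regions. Between members, the 2 Grin2d probe sets correlated at 0.61 and the 2 bright Grin1 probe sets at 0.71, while the 2 Grin2a probe sets correlated at 0.25.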

How the data were processed

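The authors deposited 1 linear signal intensity for each probe set and array. The submitters' processing notes name MAS5 as the software; which version and scaling target it was run with is not given in the sources used here. The table holds 1322 probe sets, 59 of them controls. The 2% trimmed mean of the deposited signal intensities lay between 250.8 and 251.3 on all arrays. Per the labels' protocols, biotinylated cRNA was made from total RNA. No whole-array replicate was identical; the highest correlation of log2 levels between arrays was 0.986.

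Here a factor per array brought the 2% trimmed mean of its probe sets, controls left out, to 500; values were then floored at 32 and put on the log2 scale. Probe sets under a mean signal of 100 in a region (for fits of all arrays, in every region) were left out. Access was tested with limma 3.58.1 (R 4.3.3; lmFit, eBayes with a variance trend) on the arrays of a region, and regions, region pairs, means over regions and their differences on all 63 arrays as 18 groups. p-values were adjusted by Benjamini-Hochberg over all probe sets of a contrast, with a threshold of 0.05. The number of arrays per group limits the precision. All 11 member probe sets are named. From each gene list up to 4 genes past the threshold with the largest size may be named per LH contrast and per region, by their brightest probe set, and for likeness the 3 genes with the highest correlation. Gene symbols come from the platform annotation, in which 1137 probe sets have 1 symbol, 8 several and 118 none. The members and lists were chosen with earlier results of these data known. Fits were tested on simulated data. Alternatives changed the scaling, floor, filter, variance model, probe sets, arrays and covariates.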

Additional observations from a re-analysis of the deposited data

Results flagged for a closer look

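Single arrays stood far from the other 3 of their group in 9 of 92 groups of 4 with spread. In 4 of the 9 the other 3 arrays tied at the floor, so that any value above it stands apart; in groups without ties chance flags about 1 in 20. For dim Grin1 probe sets these were mostly arrays above a floor shared by the rest: L19708_at read 5.79 on NAc no access array 1, 6.26 on AMY no access array 4 and 5.71 on LH long access array 3, with the others at 5; U11418_s_at read 5.46 on LH short access array 1, with the others at 5; and S39221_at read 6.06 on LH short access array 3. Grin1 S39221_g_at was low on AMY no access array 3, at 7.52, where the others lay at 8.72 to 8.88. Grin2a AF001423_at was low on AMY long access array 4, at 6.22 against 7.90 to 8.21, Grin2c D13212_s_at on NAc no access array 2, at 9.16 against 9.45 to 9.48, and Grin2c U08259_r_at on LH short access array 3, at 7.60 against 8.13 to 8.22.

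The access difference in LH departed from the mean of the other 5 regions, by limma's test of that difference, for Grin2d U08260_at with long (0.98, adjusted p = 1.83e-05) and short access (1.04, adjusted p = 6.13e-06), for Grin2d D13213_s_at with long access (0.87, adjusted p = 0.0105) and for Grin2c U08259_r_at with long access (-0.77, adjusted p = 0.0117), each against no access.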

How the results depend on the processing

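Of 32 member differences called between regions, 16 kept their direction and their call under each alternative that could be applied to their probe set and with each array left out, as did 3 of 8 access differences and 3 of 4 differences of access effects. The 32 include calls of Grin2a D13211_s_at, which are given above with no test, and the 16 include its LH call. Without that probe set 28 were called. Region calls went from 32 to 10 without suffixed probe sets, which leaves 3 members, and to 18 with no access arrays only; region pairs went from 81 to 27 and 41. Without suffixed probe sets the LH calls were 1 (long against no access), 1 (short against no) and 0 (long against short), and the differences of access effects 2. With array weights there were 5 calls for the mean over regions, 14 differences of access effects and 1 access call outside LH, that of Grin2c D13212_s_at in VTA for long against no access. The counts for the mean over regions and for access effects include calls of Grin2a D13211_s_at. Those for access effects also include Grin1 U11418_s_at in LH. Both are read here with no test. With all 63 arrays in 1 fit, LH calls were 1 for short against no and 0 for long against short access. Adjusted over 18 contrasts, long against no access gave 3 calls in LH. With the spike-in level as covariate, 2 of 7 members were called for long against no access, where 62 of 718 probe sets were. It was 1 of 7 for short against no access, where 68 of 718 were, and 1 of 7 for long against short access, where 43 of 718 were. Calls over all probe sets were not counted under the other alternatives, so those member counts may have moved with the whole table. Without LH the mean over regions gave 0. Without the mPFC arrays numbered 3, a choice made after seeing the data, as was the count of region pairs under alternatives, 7 differences of access effects passed. Signs turned for Grin1 S39221_g_at in mPFC with array weights (0.0035), with no access arrays only (0.11) and without the mPFC arrays numbered 3 (0.22), and in LH for long against no access with the spike-in covariate (-0.15); and, with no access arrays only, for Grin2d U08260_at in AMY (0.065) and D13213_s_at in LH (-0.028) and mPFC (0.10). The cause was not tested, other than fewer arrays or probe sets by construction. Leaving out single arrays gave 30 to 33 region calls, 74 to 81 region pairs, 3 to 5 LH calls for long against no access (3 without LH no 3, LH long 1 or LH long 2), 1 to 2 for the mean over regions (2 without AMY short 1, AMY short 2 or mPFC long 1) and 3 to 6 differences of access effects. The count for the mean over regions without AMY short 1 includes D13211_s_at, given above with no test.

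Array numbers were not used as pairs in the main fits, though same-numbered arrays resembled each other in some regions. Same-numbered arrays of a region correlated in their deviations at -0.13 to 0.73 (median 0.08), above 0.1 in 27 of 63 pairs. With 3 or 4 numbers to choose from, 34 of 63 arrays correlated best with their own number. The LH pairs lay at 0.04 to 0.28, 6 of 12 above 0.1, and 7 of 12 AMY pairs were above 0.1. In NAc 2 of 12 pairs were above 0.1, in SEP 1 of 9 and in VTA 3 of 9. In mPFC 8 of 9 pairs were above 0.1 (median 0.49, lowest -0.05), and no access difference there was called with the block. With the replicate block, region calls were 31, region pairs 84, LH calls for long against no access 4 and differences of access effects 5. Other counts did not move. The block joined arrays with the same number over all access groups, so it did not stand for the same rats. Fits of all 63 arrays treated arrays of different regions as independent, although they may come from the same rats. Between regions, same-numbered arrays of an access group correlated at -0.16 to 0.47 (median 0.02), above 0.1 in 22 of 144 pairs. Signal over background limits Grin1 U11418_s_at in LH and VTA and Grin2a D13211_s_at outside mPFC.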
